A study of Homo sapiens with 60 samples.

Results

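RNA was sequenced from HT29, an established cell line of human colorectal adenocarcinoma origin, after 24 h with a hot-water extract of Cnidii Rhizoma, a dried rhizome used in Korean medicine. The comparison described here is between 500 and 20 µg/mL of that extract, with 3 libraries at each dose, chosen by their labels. These are 6 of the 60 libraries examined, and all 16356 expressed genes were tested. A further 3 libraries at 100 µg/mL give midpoint levels, and 3 vehicle libraries give the level without extract. The vehicle is labelled 0.1% DMSO, while the series' design text gives 2%. For comparison, the same pair of doses was taken from water extracts of Rehmanniae Radix Preparata, a prepared root, of Cinnamomi Cortex, a bark, and of Samul-tang, a formula of several plants that include Cnidii Rhizoma and Rehmanniae Radix Preparata, with 3 libraries per dose. All groups are the same cell line, and whether replicates came from separate cultures is not stated, so the spread behind each p-value may be purely technical. Other treatments named in the design text were not analysed here.

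Many of the genes described below belong to the antioxidant response. NRF2 is a transcription factor that KEAP1 marks for degradation. When KEAP1 is modified by electrophiles or oxidants, NRF2 accumulates and binds antioxidant response elements at genes that make glutathione, regenerate NADPH, reduce reactive carbonyls and conjugate foreign compounds. The aldo-keto reductases, which reduce aldehydes and ketones with NADPH, are among its most responsive targets in human epithelial cells. A second group, targets of FOXO factors and of MondoA, includes genes of growth arrest and cell death. FOXO factors leave the nucleus when they are phosphorylated downstream of phosphatidylinositol 3-kinase.

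The 6 libraries held 24745742 to 36253783 counts each, and replicates correlated at 0.9921 to 0.9937 (Pearson, log2 CPM). CPM are counts scaled to a common library size. All 12 markers of HT29 epithelium were expressed, with a summed level of 11400 to 12000 CPM at 500 µg/mL and 11900 to 12300 at 20 µg/mL. Of 11 fibroblast markers 2 reached 1 CPM, with sums of 1.94 to 2.73 and 2.41 to 2.81 CPM, and COL1A2 and PDGFRA had no counts. Of 12 leukocyte markers 4 did so, with sums of 1450 to 1500 and 1390 to 1650 CPM that came almost wholly from LYZ, and CD3D, CD2 and MS4A1 had none. Of 12 hepatocyte markers only SERPINA1 reached 1 CPM, with sums of 394 to 425 and 437 to 448 CPM. Of these markers 12 epithelial, 3 fibroblast, 4 leukocyte and 4 hepatocyte genes were expressed enough to be tested, and 0 of them passed the test. The share of counts in mitochondrially encoded mRNAs was 8.820% ± 0.094 (SD, n = 3) at 500 and 9.200% ± 1.032 at 20 µg/mL (two-sided exact permutation test, p = 0.70, where the smallest possible p is 0.10).

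At 500 µg/mL the genes that rose included enzymes of carbonyl reduction, glucuronidation, glutathione and NADPH supply, led by AKR1B10, and those that fell included the cell death gene BMF, the amino acid transporter SLC6A20 and the membrane protein CLIC5. In all, 65 of the 16356 genes (0.397%) were called, 37 higher (0.226%) and 28 lower (0.171%), at an adjusted p under 0.05 by edgeR's quasi-likelihood test with Benjamini-Hochberg adjustment over all genes. At an unadjusted p under 0.05 there were 1200 genes (7.34%). The changes were small. The median log2 fold change was 0.34 among the genes called higher and -0.37 among those called lower, against -0.002 over all genes, and 50 of the 65 lay within 0.5 of 0. In every called gene the 3 libraries at 500 lay on one side of the 3 at 20 µg/mL, as did 2565 genes (15.7%) over all. Calling favours such genes, so their separation, where it is mentioned below, is a description and no further support. In the plot of fold change against level, the called genes lie along the edges of the cloud of uncalled ones, which widens towards low levels.

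**Figure D1:**
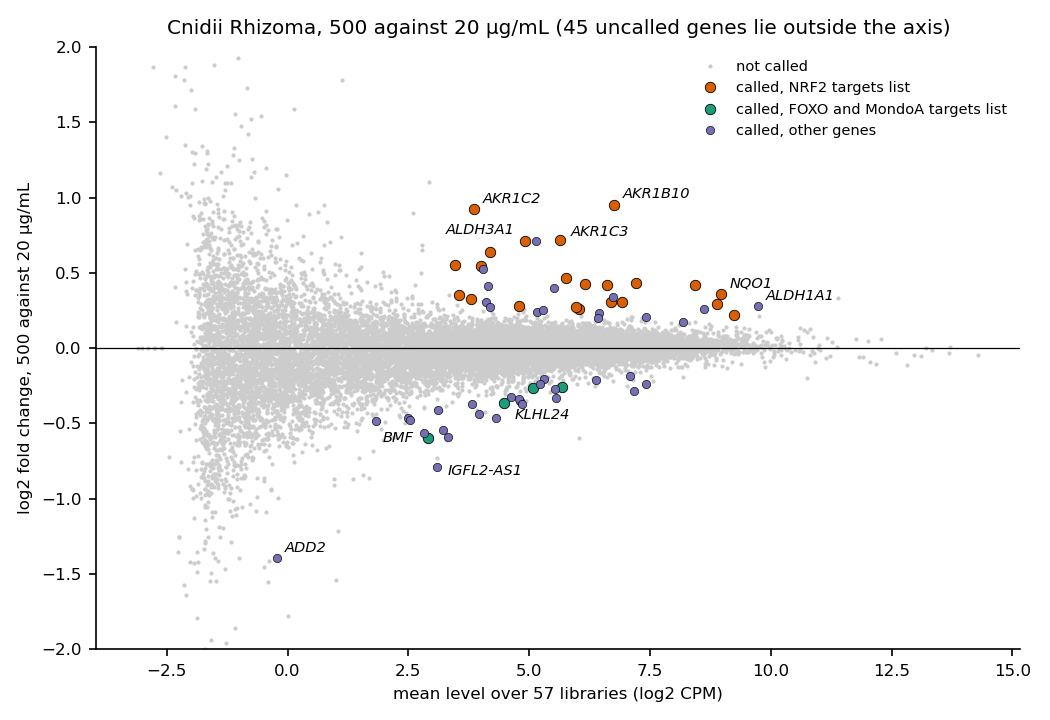
Log2 fold change of each tested gene between 500 and 20 µg/mL of Cnidii Rhizoma (vertical axis) against its mean level over 57 libraries in log2 CPM (horizontal axis), each point 1 gene. Coloured points are the 65 called genes by list, with AKR1B10 at 0.95 and the low-level ADD2 at -1.40.

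The number of calls depended on single libraries. It was 30 without replicate 1 and 34 without replicate 3 at 500 µg/mL, and 37 without replicate 2 and 39 without replicate 3 at 20 µg/mL. Each of the remaining omissions left 47 or more. There were 23 genes, 19 higher and 4 lower, that were called whichever of the 6 libraries was left out, and 42 that were not. For a gene of the latter kind the highest adjusted p among these omissions is given with the library that gave it. That library is often not the only one whose omission cost the call.

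Aldo-keto reductases showed the largest increases. AKR1B10, which reduces retinal and lipid aldehydes, stood at 183, 179 and 178 CPM at 500 µg/mL and at 91.5, 93.6 and 94 CPM at 20 µg/mL. The replicates at each dose differed by a few CPM, so the groups were far apart. Its level was 1.94-fold higher, a log2 fold change of 0.95 (SE 0.06, adjusted p = 2.7e-18, edgeR). AKR1C2, a hydroxysteroid dehydrogenase of the same superfamily, had 24.9, 20.5 and 21.7 CPM against 12.5, 10.3 and 12.9 CPM (0.92, SE 0.09, adjusted p = 1.6e-09). AKR1C3 had 69.1, 62.8 and 65.6 CPM against 42.5, 37.2 and 40.6 CPM (0.72, SE 0.12, adjusted p = 0.00055). AKR1C1 had 25, 21.4 and 23 CPM against 15.7, 15 and 13.9 CPM (0.64, SE 0.09, adjusted p = 2.2e-05). All libraries at 500 µg/mL were above all at 20 µg/mL for each of these genes. The AKR1C genes lie side by side on chromosome 10 in GRCh38 (GENCODE release 29), AKR1C1 from 4963253 to 4983283, AKR1C2 from 4987400 to 5018031 and AKR1C3 from 5035354 to 5107686. Their sequences are near-identical and their counts are estimates that divide shared reads, so their values are uncertain relative to each other. Of 9 tested aldo-keto reductases these 4 rose and 0 fell. Uncalled members included AKR1A1 at -0.05 (SE 0.07) and AKR7A2 at -0.02 (SE 0.06), and the median of the list was 0.086.

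Among 17 tested aldehyde dehydrogenases, which oxidize aldehydes to acids, 3 rose and 0 fell and the list's median was 0.006. ALDH3A1 (ENSG00000108602, chromosome 17, 19737984 to 19748943), a form that acts on aromatic and medium-chain aldehydes, had 43.6, 40.8 and 43.1 CPM at 500 µg/mL. At 20 µg/mL it had 24.4, 25.7 and 27.7 CPM, and the log2 fold change was 0.71 (SE 0.06, adjusted p = 3.4e-13, edgeR). The groups did not overlap, and the vehicle, at 26.9 to 28 CPM, lay with the low dose. Its neighbour on chromosome 17, ALDH3A2, which oxidizes fatty aldehydes, rose by 0.34 (SE 0.06, adjusted p = 0.0029), from 95.7 ± 0.989 to 121 ± 4.32 CPM (SD, n = 3). ALDH1A1, a retinal dehydrogenase and the most abundant of the called genes, rose by 0.28 (SE 0.05, adjusted p = 0.00028), from 778 ± 13 to 943 ± 27.2 CPM.

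Glucuronidation genes of 1 locus rose together. UGT1A6, which attaches glucuronic acid to small phenols, had 66, 68.1 and 70.4 CPM at 500 µg/mL against 50.9, 49.5 and 47.8 CPM at 20 µg/mL (0.46, SE 0.05, adjusted p = 6.9e-08, edgeR). UGT1A1, the bilirubin-conjugating form, rose by 0.40 (SE 0.05), and UGT1A10, an intestinal form, by 0.26 (SE 0.03), from 374 ± 8.63 to 448 ± 7.17 CPM. The UGT1A genes start at different first exons and share the exons at their end. On chromosome 2 UGT1A10 starts at 233636454, UGT1A6 at 233691607 and UGT1A1 at 233760248, and they end between 233773299 and 233773305. Reads from the shared exons cannot be assigned to 1 of them, so how the change divides among the 3 is uncertain. Of 29 tested conjugation enzymes and efflux transporters 5 rose and 0 fell, with a median of 0.118. The further members were EPHX1, microsomal epoxide hydrolase, at 0.31 (SE 0.06) and ABCG2, an efflux pump, at 0.23 (SE 0.05). ABCG2 missed the threshold only without replicate 2 at 500 µg/mL (adjusted p = 0.072). UGT1A8 stood at 0.21 (SE 0.06, adjusted p = 0.10) and the transporter ABCC2 at 0.71 (SE 0.22, adjusted p = 0.21), from levels of 1.43 and 2.34 CPM at the low and high dose.

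Of 38 tested NRF2 targets, which include the AKR and UGT1A6 genes above, 22 rose and 0 fell, and all 38 fold changes lay above 0, from 0.03 to 0.95, with a median of 0.307. The list was written with results of these samples known, so its direction is no independent evidence. NQO1, the quinone reductase often used as a readout of this pathway, had 603, 591 and 596 CPM at 500 µg/mL and 460, 446 and 491 CPM at 20 µg/mL (0.36, SE 0.05, adjusted p = 9e-06, edgeR). OSGIN1, an oxidative stress-induced growth inhibitor, had 22.8, 19.3 and 19.2 CPM against 14.6, 14.5 and 13.1 CPM (0.54, SE 0.10). TRIM16L, a relative of the ubiquitin ligase TRIM16, had 14.2, 14.4 and 15 CPM against 9.44, 9.73 and 10.6 CPM (0.55, SE 0.08). In each of these the groups did not overlap. TRIM16 itself was at 0.28 (SE 0.07) and missed the threshold whichever of the 6 libraries was left out (adjusted p up to 0.36, without replicate 3 at 500 µg/mL), and reads of the TRIM16 pair may be shared. Of the 22 called members 14 were called whichever library was left out, and without replicate 1 at 500 µg/mL the list's count was also 14. Among uncalled members FTL, the ferritin light chain, was at 0.33 (SE 0.09, adjusted p = 0.066) and GPX2, an intestinal glutathione peroxidase, at 0.21 (SE 0.10, adjusted p = 0.64).

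Genes of glutathione supply and of thioredoxin rose in part, with 6 of 34 tested members higher, 0 lower and a median of 0.089. SLC7A11, the cystine importer that feeds glutathione synthesis, had 195, 177 and 170 CPM at 500 µg/mL and 141, 132 and 129 CPM at 20 µg/mL (0.43, SE 0.07, adjusted p = 0.00044, edgeR). GCLM, the modifier subunit of the enzyme that starts glutathione synthesis, had 95.4, 83 and 80.9 CPM against 67.1, 61.1 and 65.1 CPM (0.43, SE 0.08, adjusted p = 0.0019). TXNRD1, thioredoxin reductase, had 429, 396 and 387 CPM against 319, 289 and 296 CPM (0.42, SE 0.09, adjusted p = 0.0081). The groups were separate in all 3 genes, and replicate 1 was the highest of the 500 µg/mL libraries in each. Without that library GCLM was at 0.35 (adjusted p = 0.07), TXNRD1 at 0.38 (0.11) and GCLC, the catalytic partner of GCLM, at 0.36 (0.10, against 0.42 and 0.0052 with all libraries), whereas SLC7A11 kept its call at 0.37 (0.021). GSR, which regenerates glutathione, rose by 0.26 (SE 0.05, adjusted p = 0.0016). SRXN1, sulfiredoxin, rose by 0.27 (SE 0.06, adjusted p = 0.019), and stood at 0.23 without replicate 3 at 20 µg/mL (adjusted p = 0.25).

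Among 17 tested genes of NADPH supply those that rose included ME1 and TKT, 0 fell, and the median was 0.065. ME1, malic enzyme, had 115, 117 and 116 CPM at 500 µg/mL and 95.9, 91 and 94.6 CPM at 20 µg/mL (0.31, SE 0.04, adjusted p = 9.9e-07, edgeR). The lowest library at 500 µg/mL stood above the highest at 20 µg/mL. TKT, transketolase, was at 0.22 (SE 0.05, adjusted p = 0.0096), and at 0.20 without replicate 3 at 500 µg/mL (adjusted p = 0.11). HMOX1, which degrades heme, rose by 0.35 (SE 0.08, adjusted p = 0.029), the only call among 15 genes of iron and heme, and was at 0.29 without replicate 2 at 20 µg/mL (adjusted p = 0.40).

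**Figure D2:**
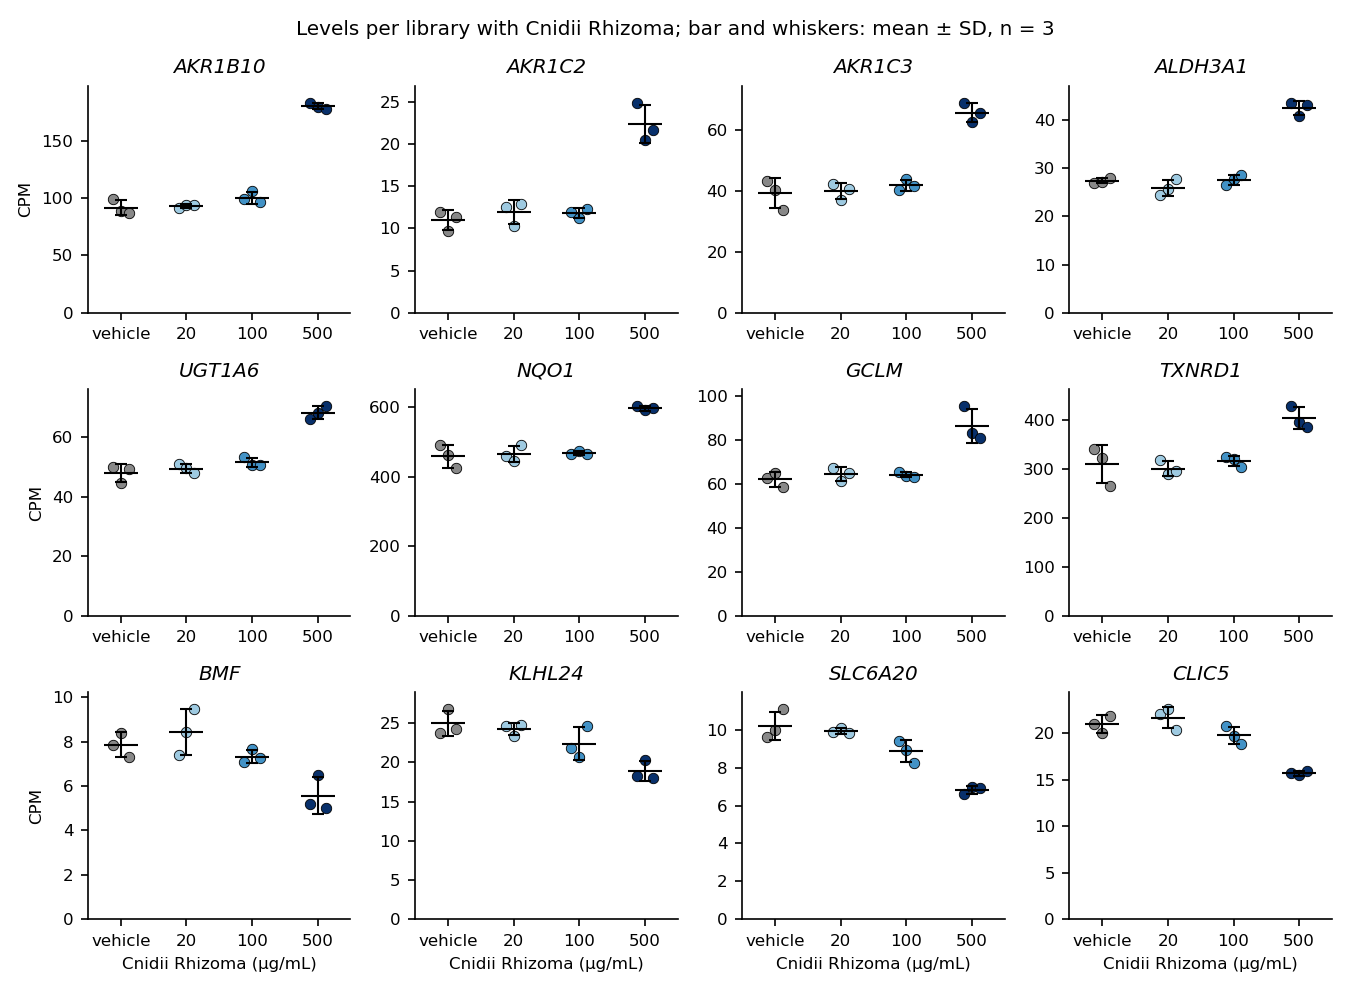
Level of 12 genes in CPM (vertical axes, from 0) in the 3 vehicle libraries and the 3 libraries at each dose of Cnidii Rhizoma (horizontal axes), each point 1 library, with bar and whiskers for mean ± SD. In the 8 genes of the upper rows the 500 µg/mL libraries stand above all others, and in BMF, KLHL24, SLC6A20 and CLIC5 they stand below them.

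Antioxidant response elements were looked for in the 250 bases before the gene start given by RefSeq, in promoters of GRCh38.p14, as the core TGACNNNGC on either strand. Of the 37 genes called higher 27 had an entry, and 6 of these (22.2%) held the core, against 0 of 20 genes called lower with an entry. Over all tested genes with an entry 1367 of 11171 (12.2%) held it, and of all RefSeq promoters searched 11% did. The 6 genes were ME1, GCLM, TXNRD1, VPS9D1-AS1, NAMPT and HPDL. Of these VPS9D1-AS1, NAMPT and HPDL are not on the NRF2 list. Most called members of that list with an entry had no match, among them NQO1, AKR1C1, AKR1C2, AKR1C3, GCLC, SRXN1 and OSGIN1. Sequence beyond these 250 bases was not searched, so a gene without a match may still have an element elsewhere. The shares were not tested. The promoters of the NADPH producer, the glutathione gene and the thioredoxin reductase named above are shown because they are members of the NRF2 list with a match, and capitals mark the core. RefSeq and GENCODE release 29 place the start over 1000 bases apart in 14 of the 47 called genes searched. Among these are AKR1C2, AKR1C3, ALDH1A1, GCLC and STX3, whose windows are then not those before the GENCODE start. A match is a description of the letters and not a measured binding site.
ME1 (chr6:83431052-83431301, minus strand): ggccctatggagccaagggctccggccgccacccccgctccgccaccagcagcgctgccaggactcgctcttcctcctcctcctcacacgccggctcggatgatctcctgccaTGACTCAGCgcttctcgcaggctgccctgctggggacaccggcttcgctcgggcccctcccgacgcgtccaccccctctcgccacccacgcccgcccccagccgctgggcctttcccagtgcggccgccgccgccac
GCLM (chr1:93909431-93909680, minus strand, core on the other strand): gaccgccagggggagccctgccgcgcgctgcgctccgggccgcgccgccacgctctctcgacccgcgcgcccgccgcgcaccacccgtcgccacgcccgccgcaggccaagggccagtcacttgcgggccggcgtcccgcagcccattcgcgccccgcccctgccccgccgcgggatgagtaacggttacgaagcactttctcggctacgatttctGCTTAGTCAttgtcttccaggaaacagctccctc
TXNRD1 (chr12:104215529-104215778, plus strand): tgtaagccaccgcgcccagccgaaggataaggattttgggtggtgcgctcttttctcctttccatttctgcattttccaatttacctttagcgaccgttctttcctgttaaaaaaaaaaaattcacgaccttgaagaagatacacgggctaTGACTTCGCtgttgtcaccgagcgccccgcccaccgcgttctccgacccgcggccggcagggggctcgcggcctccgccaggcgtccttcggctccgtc
The core starts 137 bases before the gene start in ME1, 34 in GCLM and 99 in TXNRD1. Entries were matched by symbol, and genes without one, such as AKR1B10, were not searched.

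Among genes that fell, BMF is a BH3-only protein that binds and blocks survival members of the BCL2 family. BMF (ENSG00000104081, chromosome 15, 40087890 to 40108892) had 5.18, 6.51 and 5.01 CPM at 500 µg/mL. At 20 µg/mL it had 7.41, 8.43 and 9.46 CPM, 1.52-fold more, and the log2 fold change was -0.60 (SE 0.10, adjusted p = 0.00019, edgeR). The highest of the 500 µg/mL libraries, replicate 2, lay below the lowest at 20 µg/mL by under 1 CPM. BMF was the only call among 20 tested BCL2 family genes, whose median was 0.031. BCL2L11, a BH3-only relative and likewise a FOXO target, was at 0.05 (SE 0.05, adjusted p = 0.96) and BBC3, which encodes PUMA, at -0.30 (SE 0.13, adjusted p = 0.53).

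Over all tested genes 0.171% were called lower, and the median log2 fold change was -0.002. Of 36 tested FOXO and MondoA targets 4 fell and 0 rose, with 29 fold changes below 0 and a median of -0.109. Beside BMF these were KLHL24, a ubiquitin ligase adaptor, at -0.36 (SE 0.07, adjusted p = 0.0057, edgeR), CCNG2, an atypical cyclin of arrested cells, at -0.27 (SE 0.05, 0.006), and MXD4, a repressor that competes with MYC for MAX, at -0.26 (SE 0.06, 0.026). KLHL24 had 18.3, 20.3 and 18 CPM at 500 µg/mL and 24.6, 23.4 and 24.8 CPM at 20 µg/mL, with no overlap. KLHL24 and CCNG2 kept their call in 4 of the 6 fits that leave out 1 library, and MXD4 in 1. Without replicate 3 at 500 µg/mL KLHL24 was at -0.33 (adjusted p = 0.10) and CCNG2 at -0.21 (0.16), and BMF was then the only call of the list. The count was 2 without replicate 1 at 500 µg/mL or without replicate 3 at 20 µg/mL. MXD4 was at -0.23 (0.26) without replicate 2 at 20 µg/mL. FOXO3 itself was at -0.15 (SE 0.04, adjusted p = 0.077), PINK1 at -0.28 (SE 0.08, adjusted p = 0.13), and TXNIP, a MondoA target induced by glucose, lay on the opposite side at 0.11 (SE 0.06, adjusted p = 0.74). Of 23 tested p53 targets 0 were called, with CDKN1A at -0.13 (SE 0.09) and a median of -0.030.

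Most of the genes called lower, 21 of 28, were in none of the 35 lists, and several encode membrane proteins. SLC6A20, an importer of proline and other imino acids, had 6.62, 6.98 and 6.93 CPM at 500 µg/mL and 9.9, 10.1 and 9.82 CPM at 20 µg/mL (-0.54, SE 0.08, adjusted p = 9.2e-06, edgeR). CLIC5, a chloride intracellular channel family member of actin-rich surfaces, had 15.7, 15.5 and 16 CPM against 22.1, 22.6 and 20.4 CPM (-0.47, SE 0.07, adjusted p = 1.9e-05). IGFL2-AS1, a non-coding RNA, had 7.03, 5.73 and 5.54 CPM against 10.9, 10.6 and 10.3 CPM (-0.79, SE 0.15, adjusted p = 0.0029). These 3 genes and BMF are the 4 lower genes called whichever library was left out. IGFL2-AS1 is named as antisense to IGFL2. The strand setting of the counting is not given, so whether reads of such a pair were told apart is not known.

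The remaining lower genes with the largest changes lost their call without at least 1 library. QPRT, an enzyme of NAD synthesis from tryptophan, had 11.3, 12.5 and 13.3 CPM at 500 µg/mL against 15.1, 17.1 and 18.1 CPM (-0.44, and -0.38 with adjusted p = 0.087, edgeR, without replicate 1 at 500 µg/mL). BMP2, a growth factor of the epithelial differentiation axis, had 6.17, 7.02 and 6.52 CPM against 8.25, 8.21 and 9.86 CPM (-0.41, and -0.33 with adjusted p = 0.13 without replicate 3 at 20 µg/mL). PROX1, a transcription factor induced by WNT signalling in colorectal cancer, had 11.9, 12 and 11.4 CPM against 15.5, 14.8 and 15.6 CPM (-0.37, and -0.35 with adjusted p = 0.10 without replicate 3 at 500 µg/mL). In these 3 genes the doses were separate, by under 2 CPM in QPRT and BMP2. PROX1 was the only call among 18 WNT targets, with AXIN2 and SOX9 both at 0.00 (SE 0.05).

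NUAK2, a kinase related to AMPK, had 4.39, 5.3 and 4.64 CPM at 500 µg/mL and 6.15, 7.16 and 6.5 CPM at 20 µg/mL (-0.48, and -0.40 with adjusted p = 0.22, edgeR, without replicate 2 at 20 µg/mL). MRAS, a RAS-related GTPase, had 4.59, 4.67 and 4.47 CPM against 6.04, 6.61 and 6.31 CPM (-0.47, and -0.42 with adjusted p = 0.15 without the same library). RGCC, a regulator of cell cycle named for its response to complement, had 6.65, 6.59 and 6.73 CPM against 11.1, 9.43 and 9.7 CPM (-0.59, and -0.51 with adjusted p = 0.26 without replicate 1 at 20 µg/mL). RGCC missed the threshold whichever library was left out. The high-dose values of MRAS and RGCC were tight, and the spread lay at the low dose. FAM131B had 5.18, 5.14 and 5.25 CPM against 6.61, 8.07 and 8.3 CPM (-0.56, and -0.52 with adjusted p = 0.22 without replicate 2 at 20 µg/mL). The only omission that kept its call was that of replicate 1 at 20 µg/mL (adjusted p = 0.011). TCP11L2 had 2.81, 2.86 and 2.95 CPM against 3.4, 5.09 and 3.43 CPM (-0.49). Without replicate 2 at 20 µg/mL TCP11L2 was at -0.24 (adjusted p = 0.93). It also missed the threshold without any 1 of the 500 µg/mL libraries (adjusted p of 0.11 to 0.18). The lowest fold change, -1.40 (SE 0.31) for ADD2, an adducin of the membrane skeleton, came from levels of 0.205 to 0.353 CPM against 0.559 to 0.841 CPM, and was -1.25 (adjusted p = 0.16) without replicate 3 at 500 µg/mL.

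Apart from VPS9D1-AS1, which is set against the vehicle further on, the other called genes had changes under 0.5, except 1 gene without a symbol, ENSG00000282883, at 0.71 (SE 0.15, adjusted p = 0.011, edgeR) and 0.70 (0.097) without replicate 2 at 20 µg/mL. Higher were GPAT3, an enzyme of triglyceride synthesis, at 0.41, PIR, an iron-binding NRF2 target, at 0.33, HGD, which degrades homogentisate, at 0.31, HPDL, a mitochondrial dioxygenase-like protein, at 0.27, SERPINB5, also called maspin, at 0.25, the copper pump ATP7A at 0.24, and NAMPT, which salvages nicotinamide into NAD, at 0.21. Lower were the orphan receptor GPRC5C at -0.37, the kinase DYRK1B at -0.34, the vesicle protein SYTL2 at -0.33, the histone deacetylase HDAC5 at -0.33 and the receptor phosphatase PTPRH at -0.27. Smaller decreases were those of the ubiquitin ligase TRIM31 at -0.24, the glycosyltransferase B3GALT5 at -0.24, TMC5 at -0.21, the arrestin ARRB1 at -0.21 and STX3, a syntaxin of the apical membrane, at -0.19. Each of these higher and lower genes missed the threshold without at least 1 library, with a highest adjusted p of 0.058 (HDAC5, without replicate 1 at 500 µg/mL) to 0.51 (B3GALT5, without replicate 2 at 20 µg/mL). HGD, HPDL, TMC5 and ARRB1 missed it whichever of the 6 libraries was left out. GPAT3, ATP7A, TRIM31 and B3GALT5 kept the call in 1 of these 6 fits, and the others in 2 to 4.

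Other programmes of the cells moved little. Of 22 goblet and secretory genes 1 fell, the membrane mucin MUC13 at -0.29 (SE 0.06, adjusted p = 0.014, edgeR), which was at -0.26 (0.11) without replicate 2 at 500 µg/mL. The list's median was -0.136 with 20 fold changes below 0. In the S phase and DNA replication list 2 of 47 members rose, RRM2, a subunit of ribonucleotide reductase, at 0.17 (SE 0.04, adjusted p = 0.0054) and CDC6, which loads the replicative helicase, at 0.20 (SE 0.04, adjusted p = 0.0057). CDC6 was at 0.19 (0.061) without replicate 1 at 500 µg/mL and missed the threshold without replicate 3 at 20 µg/mL too (0.058), and without a filter on low counts both missed the threshold, at 0.19 for RRM2 and 0.12 for CDC6 (adjusted p). Of the 47 fold changes 45 lay above 0, with a median of 0.105, and of 35 genes of G2 and mitosis 33 did so, with a median of 0.058 and 0 called. Of 25 genes of cholesterol synthesis 0 were called and 24 lay below 0, with a median of -0.066, while ACSS2, which makes acetyl-CoA from acetate, was the 1 call of 14 fatty acid genes at -0.35 (SE 0.08, adjusted p = 0.026), and at -0.30 (0.28) without replicate 3 at 500 µg/mL. Targets of the aryl hydrocarbon receptor were called only where they are also NRF2 targets, NQO1, ALDH3A1 and UGT1A6, and its main target CYP1A1 was at -0.09 (SE 0.45, adjusted p = 1) from a level under 1 CPM. SLC7A11 was also the 1 call among 34 ATF4 targets of amino acid supply, with a list median of 0.025. Of 11 metallothionein and zinc genes, 45 interferon genes, 24 NF-kB genes, 20 ER chaperones and 16 heat shock genes 0 were called. The interferon genes lay below 0 in 37, with a median of -0.086. The ER chaperones lay above 0 in 17, with a median of 0.075, and the heat shock genes in 12, with a median of 0.042. Metallothionein and zinc genes were divided, 6 above and 5 below 0, as were NF-kB genes, 11 above and 13 below. The plot of gene lists shows every tested member of 21 of the lists.

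**Figure D3:**
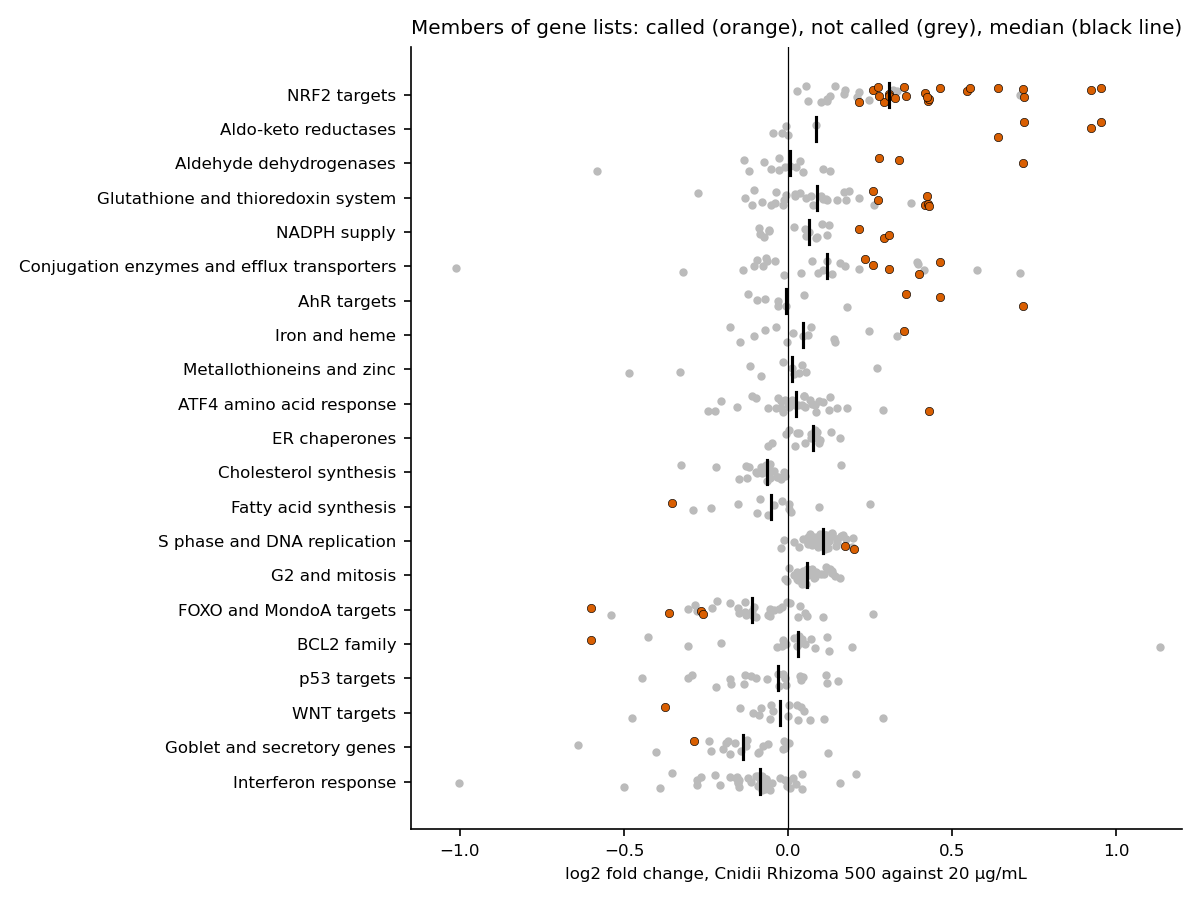
Log2 fold change between 500 and 20 µg/mL of Cnidii Rhizoma (horizontal axis) for each tested member of 21 gene lists (rows), with called genes in orange, uncalled genes in grey and the list's median as a black line; points are spread vertically for legibility. The NRF2 list has 22 of 38 members called, all above 0, with a median of 0.307, and the FOXO and MondoA list has 4 of 36 called, all below 0.

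The doses were spaced by 5-fold steps, and the midpoint showed where along them the change lay. At 100 µg/mL the median called gene had moved 21.5% of the way from its level at 20 to its level at 500 µg/mL on the log2 scale, 15.7% among the 37 higher and 31.9% among the 28 lower genes. In 59 of the 65 genes the mean at 100 µg/mL lay between the outer doses, in 28 of 28 lower and 31 of 37 higher genes, and in the other 6 it lay under that at 20 µg/mL. NRF2 targets sat mostly at the low-dose level. Among the 22 called members the median was 10.4% of the way, with a range of -6.63% to 29.8%. AKR1B10 had 98.8, 106 and 96.2 CPM at 100 µg/mL, 11.1% of the way, and AKR1C2 had 11.9, 11.2 and 12.3 CPM, which lay within its 20 µg/mL range. BMF, at 7.06, 7.66 and 7.24 CPM, was 32.9% of the way, and the median of the 4 called FOXO and MondoA targets was 32.8%. These percentages use the levels that chose the genes and are a description without a test.

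**Figure D4:**
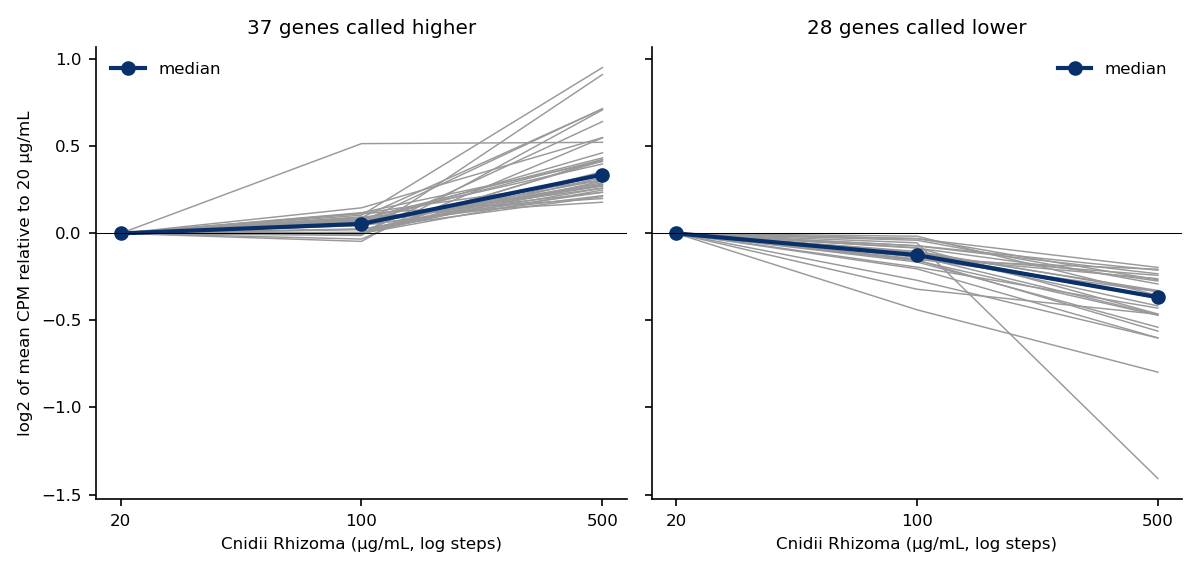
Mean CPM at each dose of Cnidii Rhizoma relative to that at 20 µg/mL on the log2 scale (vertical axis) against dose in equal log steps (horizontal axis), each grey line 1 called gene and the dark line the median. At 100 µg/mL most higher genes lie near 0, and the line that reaches its final level already at 100 µg/mL is VPS9D1-AS1.

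Against the vehicle, all 3 libraries at 500 µg/mL lay above all 3 vehicle libraries in 35 of the 37 higher genes, and in 9.53% of all tested genes. They lay below them in 28 of 28 lower genes, and in 9.40% of all. The genes were chosen by their level at 500 µg/mL, so these counts are a description. At 20 µg/mL all libraries lay outside the vehicle range in 7 of the 65 genes, a smaller share than the 13.5% of all tested genes, and nothing is read from it. Among the higher genes PIR and HGD lay above the vehicle at 20 µg/mL, and CDC6 and VPS9D1-AS1 lay below it. Among the lower genes IGFL2-AS1 and NUAK2 lay above it, and MUC13 lay below it. VPS9D1-AS1, 1 of the 7, a non-coding RNA antisense to VPS9D1, had 18.4, 17.6 and 22.3 CPM at 500 µg/mL and 13.8, 13.7 and 13 CPM at 20 µg/mL (0.52, SE 0.11, adjusted p = 0.012, edgeR). Its vehicle libraries had 17.9, 18.6 and 21.9 CPM, so that the low dose stood apart and the high dose did not. Whether its reads were told apart from those of VPS9D1 is not known either. VPS9D1-AS1 was 98.9% of the way at 100 µg/mL, and without replicate 3 at 500 µg/mL it was at 0.42 (adjusted p = 0.22).

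The dose difference was then set against that of other extracts, with the difference between the 2 dose differences tested in the same model. The extracts do not share libraries in these contrasts. The called genes were chosen by their change with Cnidii Rhizoma, and the contrasts use those libraries again. Counts and medians over the called genes are therefore a description. Each dose difference lies within 1 extract. Rehmanniae Radix Preparata carries sample codes of the same series as Cnidii Rhizoma, while Cinnamomi Cortex and Samul-tang carry codes of other series. In their differences from Cnidii Rhizoma series and extract cannot be told apart, and the part of the series was not tested. Against Rehmanniae Radix Preparata 2 genes (0.0122%) differed, and 526 (3.22%) had an unadjusted p under 0.05. AKR1B10 rose by 0.53 more with Cnidii Rhizoma (0.95 against 0.43, adjusted p = 0.00027, edgeR), and ADD2 differed by -2.17 (-1.40 against 0.77, adjusted p = 0.015). With only the 18 libraries of these 2 extracts in the fit, both had an adjusted p of 0.071. The AKR1B10 difference was called whichever of the 12 libraries was left out, with an adjusted p up to 0.0093, while that of ADD2 reached 0.16 without replicate 1 of Cnidii Rhizoma at 500 µg/mL. Of the 37 genes called higher 36 were above 0 with Rehmanniae Radix Preparata too, with a median of 0.21, and of the 28 lower genes 24 were below 0, with a median of -0.10.

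Against Samul-tang 0 genes (0%) differed by edgeR or by DESeq2, with 360 (2.20%) at an unadjusted p under 0.05. Without the filter on low counts edgeR called 50, of which 7 are genes that the filter removes. The 37 higher genes were all above 0 with Samul-tang, with a median of 0.29, and 27 of the 28 lower genes were below 0, with a median of -0.20. For AKR1B10 the fold change was 0.63, and the difference of 0.32 had a 95% interval of 0.17 to 0.47 that does not include 0 before adjustment. For AKR1C2 (0.76) the difference was 0.16 with an interval of -0.10 to 0.42, for NQO1 (0.32) it was 0.03 with -0.10 to 0.17, and for BMF (-0.33) it was -0.27 with -0.54 to 0.00. A missed threshold does not show that the extracts act alike, and the intervals give what remains possible for each gene.

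With Cinnamomi Cortex 362 genes (2.21%) had a different dose response, 214 (1.31%) higher and 148 (0.905%) lower in Cnidii Rhizoma, and 235 genes did so without replicate 2 of Cnidii Rhizoma at 500 µg/mL. The 37 higher genes were all above 0 with the bark extract too, with a median of 0.44, and 6 of them differed, each with the smaller increase in Cnidii Rhizoma. AKR1C1 was at 0.64 against 1.60 with Cinnamomi Cortex (difference -0.96, SE 0.13, adjusted p = 1.9e-06, edgeR) and AKR1C2 at 0.92 against 1.61 (-0.68, SE 0.13, adjusted p = 0.00072). ME1 was at 0.31 against 0.61 (adjusted p = 0.0003). Those 3 differences were called whichever library was left out. AKR1B10, at 0.95 and 1.03, was not among them (difference -0.08, SE 0.08, adjusted p = 0.75), nor was ALDH3A1 at 0.71 and 0.74. The differences in HMOX1 (-0.44) and TKT (-0.24) reached adjusted p = 0.15 without replicate 3 of Cnidii Rhizoma at 20 µg/mL and 0.18 without replicate 3 of Cinnamomi Cortex at 500 µg/mL.

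Of the 28 genes called lower 14 were below 0 with Cinnamomi Cortex, with a median of -0.01. A difference was called in 14 of the 28, against 2.21% of all tested genes. The 28 were chosen by their decrease in the same Cnidii Rhizoma libraries, so these counts are a description. ACSS2 was at -0.35 with Cnidii Rhizoma and 0.89 with Cinnamomi Cortex (adjusted p = 7e-11, edgeR), RGCC at -0.59 and 0.73 (adjusted p = 1.3e-05), IGFL2-AS1 at -0.79 and 0.47 (adjusted p = 7.9e-05) and SLC6A20 at -0.54 and 0.09 (adjusted p = 8.8e-05). BMF was at -0.60 and -0.10 (difference -0.50, SE 0.14, adjusted p = 0.036), which reached 0.16 without replicate 3 of Cnidii Rhizoma at 20 µg/mL. CLIC5, at -0.47 and -0.35, was not called (adjusted p = 0.69).

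**Figure D5:**
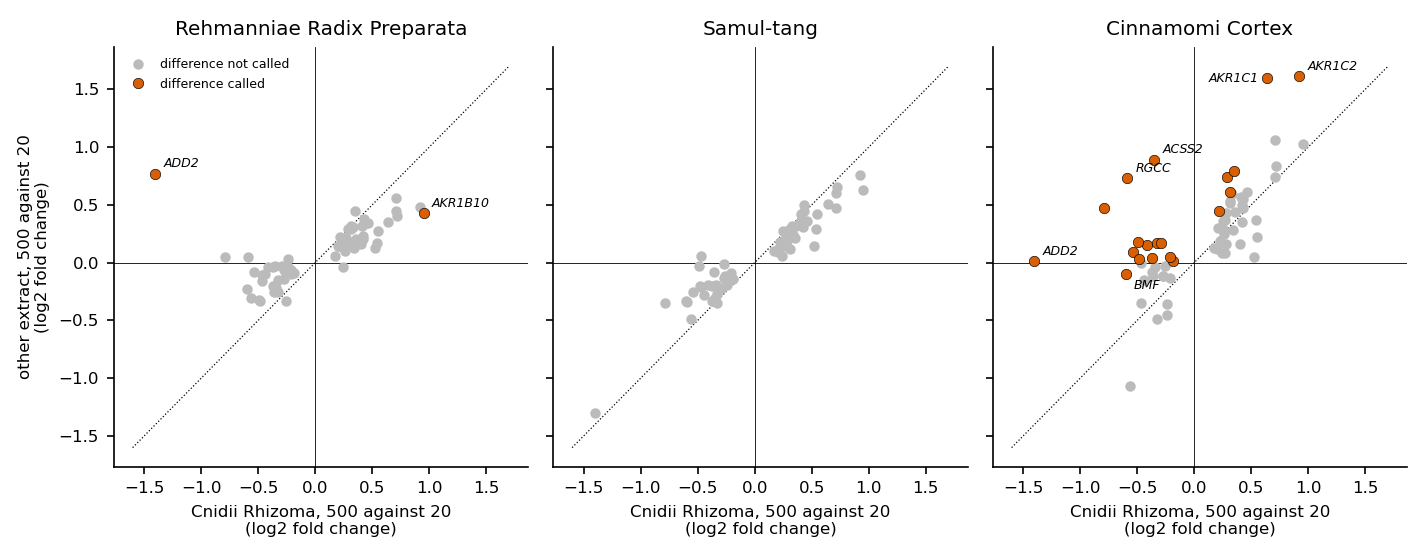
Log2 fold change between 500 and 20 µg/mL with each other extract (vertical axes) against that with Cnidii Rhizoma (horizontal axes) for the 65 genes called with Cnidii Rhizoma, each point 1 gene; the dotted line marks equal change and orange points have a called difference. The higher genes lie on the same side of 0 in nearly all, and with Cinnamomi Cortex 14 of the 28 lower genes have a called difference.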

How the data were processed

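RNA-seq of 60 HT29 libraries was analysed from the authors' deposited table of expected counts per gene, estimates that need not be whole and were rounded here. STAR 2.7.3a, RSEM 1.3.3, Trim Galore 0.6.5, FastQC 0.11.9 and the GRCh38 (hg38) build are named in the submitters' processing notes, with no role given. Neither the annotation release nor the strand setting is given in the sources used here. Another 213 columns of the table are tied to no sample here and were not used. Groups came from the labels.

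The quasi-likelihood test of edgeR 4.0.16 (R 4.3.3) was fitted to the 57 libraries of the 19 groups with 3 replicates, with robust empirical Bayes, TMM factors (0.9382 to 1.043), filterByExpr at a minimum count of 10 (16356 genes) and no block, and was tested on simulated data. Genes were called in a contrast at a Benjamini-Hochberg adjusted p under 0.05. The simulation changed 200 genes between 500 and 20 µg/mL, with log2 fold changes of 0.3, 0.5 or 1 in either direction. It called 46 of 67 genes at 0.3, 56 of 67 at 0.5 and 66 of 66 at 1, with 0 wrong signs. It also called 13 unchanged genes. SE is the standard error of a log2 fold change. Levels are CPM, scaled by the TMM library sizes. Same-numbered replicates at 500 and 20 µg/mL had correlations of deviations of 0.009, -0.024 and 0.008, so the numbers were not taken to pair them. Between replicates the chi-square was 2.43 to 9.45 times what counting alone gives, so all were kept as separate libraries.

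Alternatives were DESeq2 1.42.0, RLE size factors, no filter, unrounded counts, fewer libraries, a replicate block and leaving out each library. Genes with values per library are the 12 higher and 12 lower called genes of largest fold change with a mean log2 CPM of at least 1, an ordinary symbol and separate groups. Other called genes, up to 3 uncalled members of each list and a fixed panel could be named. KLHL24, NQO1 and ME1 are of the panel, whose values per library were also given. Some genes that these rules take are not reported here. The comparison, the lists and the rules were chosen with earlier results of these data known.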

Additional observations from a re-analysis of the deposited data

Results flagged for a closer look

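Genes were picked out here because the difference between 500 and 20 µg/mL itself differed between Cnidii Rhizoma and another extract by edgeR's interaction test at an adjusted p under 0.05. Values are the dose difference with Cnidii Rhizoma minus that with the other extract, on the log2 scale. Against Rehmanniae Radix Preparata these were AKR1B10 at 0.53 and ADD2 at -2.17. The ADD2 difference was called in 6 of the 12 fits that leave out 1 library.

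Against Cinnamomi Cortex redox and NADPH genes were negative, with AKR1C1 at -0.96, AKR1C2 at -0.68, HMOX1 at -0.44, ME1 at -0.31 and TKT at -0.24. Genes called lower with Cnidii Rhizoma were negative too. They were ADD2 at -1.40, RGCC at -1.32, IGFL2-AS1 at -1.26, ACSS2 at -1.24, TCP11L2 at -0.66, SLC6A20 at -0.63, BMP2 at -0.56, HDAC5 at -0.50, NUAK2 at -0.50, BMF at -0.50, MUC13 at -0.46, GPRC5C at -0.41, ARRB1 at -0.25 and STX3 at -0.20. Of the differences named here, 9 missed the threshold in some of the 12 fits that leave out 1 library. The call held in 1 of the 12 for ARRB1, 2 for NUAK2, 3 each for BMF and STX3, 4 each for ADD2 and TKT, 6 for HMOX1, 7 for GPRC5C and 9 for TCP11L2. Their highest adjusted p by edgeR ran from 0.12 (STX3, without replicate 1 of Cnidii Rhizoma at 20 µg/mL) to 0.3 (TCP11L2, without replicate 2 at that dose).

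Of the 362 genes that differed from Cinnamomi Cortex, 342 were not changed past the test by Cnidii Rhizoma itself, and the naming rule takes 4 of these. The zinc importer SLC39A10 was at -0.89 and the p53 target CDKN1A at -0.87, while the metallothionein MT2A was at 1.23 and TXNIP at 0.39. Within Cnidii Rhizoma these genes had dose differences of 0.04 (SLC39A10), -0.13 (CDKN1A), -0.08 (MT2A) and 0.11 (TXNIP).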

How the results depend on the processing

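No fold change of a called gene changed sign under any of the 15 alternatives, and 22 of the 65 calls held in all of them. The 65 calls were 92 with DESeq2, 64 with RLE size factors, 150 without the filter on low counts, 124 with only the 9 Cnidii Rhizoma libraries, and 30 to 57 when 1 library was left out. Added after the data were seen, the fit without robust empirical Bayes gave 70 calls and the fit of 18 libraries gave 56. With the replicate block, although the numbers were not shown to pair libraries and not every library correlated best with its own number, there were 177 calls with 57 libraries, which kept 65 of the 65, and 303 with 9. NRF2 targets called numbered 14 to 20 without 1 library. FOXO and MondoA targets called numbered 9 and 10 with the replicate block (57 and 9 libraries) and 1 to 4 without 1 library. S phase genes called numbered 4 with DESeq2, 0 without the filter, 4 and 6 with the replicate block (57 and 9 libraries) and 1 to 2 without 1 library. Differences from Rehmanniae Radix Preparata numbered 96 without the filter, 0 in the fit of 18 libraries, 5 with the replicate block and 1 to 3 without 1 library. Those from Samul-tang numbered 50 without the filter, of which 7 were genes that the filter removes, and those from Cinnamomi Cortex 772 with the replicate block and 235 to 346 without 1 library. The median midpoint of 21.5% ran from 18.3% to 24.5% without 1 library. The difference in mitochondrial share, -0.38 percentage points, was between -0.86 and 0.17, the latter without replicate 3 at 20 µg/mL. The cause of these shifts was not tested.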
